A study of Bos taurus with 20 samples.

Results

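Interferon response genes were followed across the skeletal muscle of 20 bulls. The genes were ISG15, MX1, MX2, IFI6, RSAD2 and IRF1, and a member was every probe set that the array annotation used here assigned to exactly 1 of these symbols. Of the 6 genes, 5 had 1 probe set each, among 9155 genes of the array with a probe set of 1 symbol. No probe set was named IRF1, the transcription factor of the group, and it has no value here. The tissue was Musculus longissimus dorsi, the long muscle of the back, and the bulls were Holstein x Charolais F2 animals, which descend from dairy and beef cattle. Of these, 10 had much and 10 had little fat laid down between the muscle fibres, called high and low IMF (intramuscular fat), with total RNA of each animal on 1 Affymetrix array. In each group 5 animals had an S before the number in the title and 5 did not, and the meaning of this S is not in the labels. These title series are called S and other below, and animals are named by IMF group and a number given in the order of the deposit, with 6 to 10 in the S series and 1 to 5 in the other. Neither age nor health of the animals is described in the labels used here.

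Interferons are secreted proteins that warn neighbouring cells of a virus. Type I interferons bind the receptor of IFNAR1 and IFNAR2, and the JAK kinases behind it pass the signal to transcription factors that switch on a shared set of interferon-stimulated genes. Members of that set are usually low in resting tissue and rise together after exposure to interferon. ISG15 is a small protein that is attached to other proteins much as ubiquitin is. MX1 and MX2 are dynamin-like GTPases that trap viral particles, and their genes stood next to each other on chromosome 1, with 0 protein-coding genes starting between them in the NCBI RefSeq annotation for cattle. IFI6 is a small membrane protein induced by interferon, and RSAD2, or viperin, is a radical SAM enzyme that makes a nucleotide analogue blocking viral replication.

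The values are the linear probe set signals of the deposited table, tested as log2(signal + 1), a scale that understates the change of dim probe sets. The median signal of an array ran from 51.6 to 67.6, with high 6 and high 9 the lowest. The bacterial BioB spike-in, which is added to each sample at a set amount, read 204 to 355 in the S animals and 397 to 482 in the other animals, so the title series were apart on a control that is not cattle RNA. High 6, high 8, high 10 and low 3 had an albumin signal over 2000, a liver transcript, against at most 469 in the 16 remaining arrays. Skeletal muscle markers were bright in every animal, with ACTA1, the muscle actin, at or above 12016.

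ISG15 was far higher in 2 animals than in the rest. Its signal in the 5 high IMF S animals was 79.9, 635.0, 87.3, 83.2 and 84.8, against 481.5, 85.0, 88.9, 109.0 and 155.0 in the 5 low IMF S animals. In the other series it was 44.6, 49.8, 46.7, 58.7 and 46.99 in high IMF animals, against 58.7, 37.98, 56.01, 64.4 and 44.7 in low IMF animals. High 7 and low 6 stood far above all others, with low 10 the third-highest. On the log2(signal + 1) scale high 7 lay 7.14-fold, low 6 5.42-fold and low 10 1.75-fold above the median of the S animals. All S animals lay above all other animals.

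MX1 had its highest signals in the same 3 animals. Its signal was 18.1, 273.9, 40.96, 39.7 and 35.8 in the high IMF S animals, against 309.6, 22.6, 75.9, 81.5 and 143.9 in the low IMF S animals. In the other series it was 30.7, 50.9, 34.4, 83.8 and 24.7 in high IMF animals, against 36.9, 34.9, 31.3, 64.9 and 49.5 in low IMF animals. Low 6 was the highest, high 7 the second and low 10 the third, at 5.47-fold, 4.84-fold and 2.55-fold the median of the S animals. High 6, an S animal with a dim array, held the lowest value of all 20. The IMF groups and the title series overlapped.

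IFI6 was high in these 3 animals and in 1 more. Its signal was 71.5, 376.0, 69.4, 77.9 and 105.5 in the high IMF S animals, against 236.1, 80.3, 89.9, 86.5 and 162.3 in the low IMF S animals. In the other series it was 91.6, 94.3, 109.0, 227.1 and 89.9 in high IMF animals, against 103.0, 79.8, 99.6, 89.6 and 75.3 in low IMF animals. High 7 was the highest, low 6 the second, high 4 the third and low 10 the fourth. High 4, at 2.43-fold the median of its series, also had the fourth-highest MX1 signal, but its ISG15 signal was within the range of the other animals. Outside these 4 animals IFI6 was even, from 69.4 to 109.0.

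RSAD2 varied in both title series. Its signal was 10.25, 143.2, 34.9, 27.8 and 33.98 in the high IMF S animals, against 119.0, 39.65, 30.55, 35.6 and 94.9 in the low IMF S animals. In the other series it was 61.1, 55.4, 65.8, 94.97 and 22.6 in high IMF animals, against 62.3, 75.5, 48.2, 130.2 and 73.6 in low IMF animals. High 7 again held the highest value, followed by low 4 of the other series and then by low 6, with high 4 and low 10 next. Among the S animals, high 7, low 6 and low 10 were at 3.98-fold, 3.31-fold and 2.65-fold the series median, and the 7 remaining S animals had signals of at most 39.65.

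MX2 was close to the floor of the array. Its mean signal was 11.7, and 13.6% of all probe sets had a mean as low or lower, so it was among the dimmest 40% that were left out of the tests. Its signal ran from 5.37 to 19 with a median of 10.8 in high IMF animals, and from 2.22 to 23.9 with a median of 13.4 in low IMF animals. The 3 animals that stood out for ISG15 and MX1 did not do so for MX2, with 14.54 in high 7, 6.05 in low 6 and 14.3 in low 10. At this signal a change of MX2 may not be measurable.

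**Figure D1:**
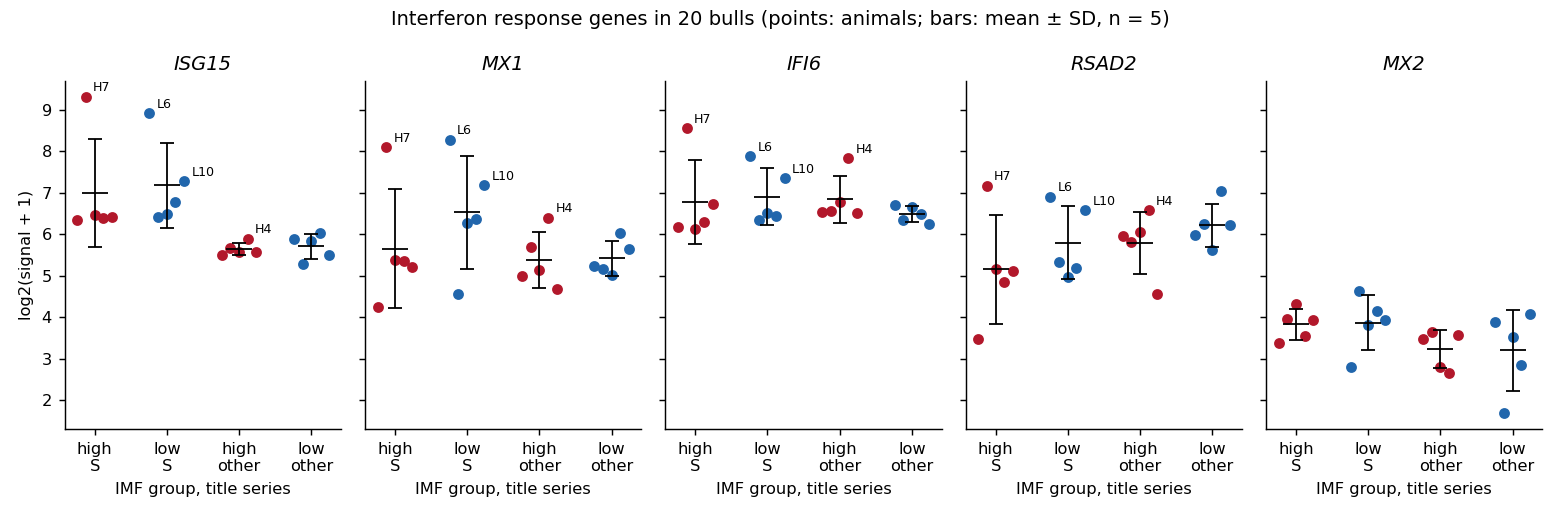
Log2(signal + 1) of the 5 measured members (vertical axis) in the 4 sets of 5 bulls, by IMF group and title series (horizontal axis); points are animals, bars the mean ± SD, and labels mark high 7 (H7), low 6 (L6), low 10 (L10) and high 4 (H4) except in the MX2 panel. H7 and L6 lie above the rest of the S animals for ISG15, MX1, IFI6 and RSAD2, and every S animal lies above every other animal for ISG15.

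High and low IMF muscle did not differ detectably in any member, the comparison for which the series was made. ISG15 had a mean of 6.32 ± 1.12 in high IMF muscle on the log2(signal + 1) scale, against 6.45 ± 1.05 in low IMF muscle (SD, n = 10 per group). The difference was -0.13 (SE 0.45). For MX1 the means were 5.52 ± 1.07 in high IMF muscle and 5.98 ± 1.12 in low IMF muscle, and the difference was -0.46 (SE 0.45). For IFI6 the difference of high minus low IMF was 0.12 (SE 0.28), and for RSAD2 it was -0.53 (SE 0.38). The limma adjusted p was 0.9997 for each of these 4 genes, after Benjamini-Hochberg adjustment over 14409 probe sets. MX2, in a fit with no filter on dim probe sets, differed by -0.0067 (SE 0.30).

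This count of 0 called members stands beside 0.0% of all tested probe sets called, and 1.64% had an unadjusted p under 0.05, which none of the members had. With an SE of 0.45 for ISG15 and MX1, differences of that size could not be told from the spread between animals. The sign of the ISG15 difference rested on single animals. Without low 6 the ISG15 difference turned to 0.15, and without high 7 it was -0.46. With each animal left out in turn, the IFI6 difference also changed sign, from -0.08 to 0.25. The sign held for MX1, from -0.74 to -0.20, and for RSAD2, from -0.72 to -0.31. Both groups held an animal with a high response, high 7 in the one and low 6 in the other.

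Within the S animals high minus low IMF was -0.19 for ISG15, -0.87 for MX1, -0.13 for IFI6 and -0.64 for RSAD2. Within the other animals it was -0.07 for ISG15, -0.04 for MX1, 0.36 for IFI6 and -0.43 for RSAD2. No member passed in either series, where 0.0% of all probe sets passed, with 9.95% of probe sets in the S series and 3.42% in the other series at an unadjusted p under 0.05. The test of whether the IMF difference itself differed between the title series called 0.0% of probe sets, with 5.47% at an unadjusted p under 0.05 and no member among them. The largest of these interaction terms for a member was -0.83 (SE 0.87) for MX1.

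**Figure D2:**
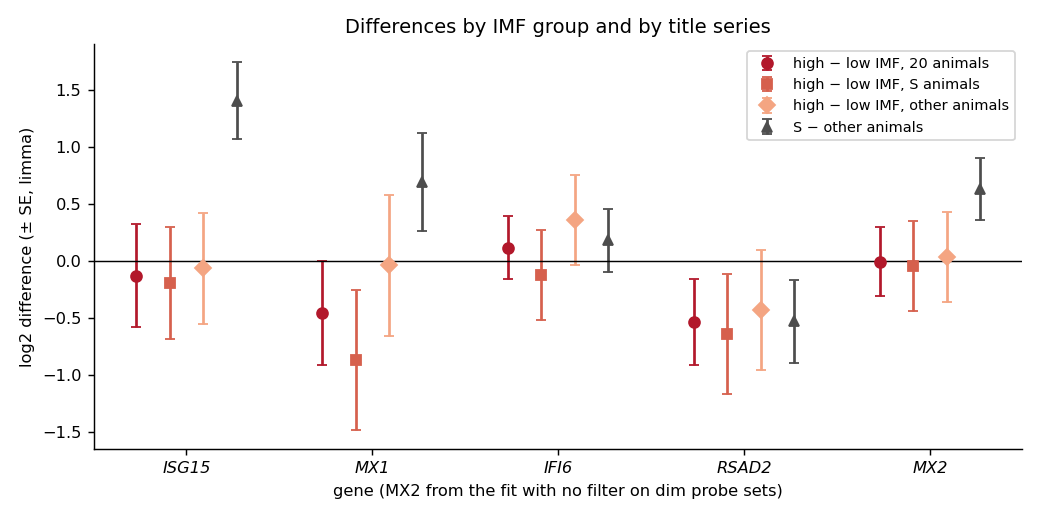
Log2 difference with its standard error from limma (vertical axis) for each member (horizontal axis), as high minus low IMF in all 20 animals and within each title series, and as S minus other animals. The IMF differences lie between -0.87 and 0.36, and ISG15 is higher by 1.40 in S animals.

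ISG15 was higher in S animals than in other animals. ISG15 had a mean of 7.08 ± 1.11 on the log2 scale in S animals, against 5.68 ± 0.23 in other animals (SD, n = 10 per series). The difference was 1.40 (SE 0.34), which is 2.64-fold, with a limma adjusted p of 0.000999. It was called among 68.4% of all probe sets, and 33.5% were called as higher in S, so a call between these series is the common outcome on these arrays. In 10.4% of tested probe sets all S animals lay above all other animals, as ISG15 did. Without high 7, low 6 and low 10, the animals with the highest signals, the ISG15 difference was 0.80.

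The other members did not pass between the title series. MX1 was 0.69 higher in S animals (SE 0.43, limma adjusted p = 0.163). IFI6 differed by 0.18 (SE 0.28, adjusted p = 0.580). RSAD2 was lower in S animals by value, with a difference of -0.53 (SE 0.36, adjusted p = 0.202). MX2 differed by 0.63 (SE 0.27, adjusted p = 0.058) in the fit with no filter. High 7, low 6 and low 10 are all S animals chosen by the level of these genes, so leaving them out lowers the S mean by construction. Without them the differences, given with no test, were -0.04 for MX1, -0.30 for IFI6 and -1.10 for RSAD2. When each animal was left out in turn, RSAD2 passed in 1 case, without high 7 (-0.76, limma adjusted p = 0.038), and MX1 passed without the 4 albumin arrays (1.14, limma adjusted p = 0.046). The series differed in the BioB spike-in as well, and the part of array handling in these differences cannot be told apart from the animals.

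The spread between animals was wide for these genes. The SD of log2 values over 20 animals was 1.06 for ISG15, 1.09 for MX1, 0.92 for RSAD2 and 0.65 for IFI6, against a median of 0.36 over all tested probe sets. An SD as large or larger was found in 1.45% of probe sets for ISG15, 1.29% for MX1, 2.57% for RSAD2 and 11.7% for IFI6. Within the 4 sets of IMF group and title series the SD was 0.85 for ISG15, 1.07 for MX1, 0.91 for RSAD2 and 0.68 for IFI6, against a median of 0.25. As large a within-set SD was found in 1.26% of probe sets for ISG15, 0.763% for MX1, 1.06% for RSAD2 and 2.45% for IFI6. These 4 genes passed a filter on the mean over all 20 animals, which takes in the animals where they are high.

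ISG15, MX1, IFI6 and RSAD2 were correlated among the S animals. Because ISG15 put the title series fully apart, correlations across animals were taken within each series, 20 in all, and their permutation p-values are unadjusted and two-sided. Among the 10 S animals ISG15 and MX1 had a Pearson r of 0.89 (permutation p = 5.0e-05) and a Spearman rho of 0.94 (permutation p = 0.00015). ISG15 and IFI6 had an r of 0.96 (permutation p = 0.00038) and a rho of 0.77 (permutation p = 0.0126). For the 6 pairs of ISG15, MX1, IFI6 and RSAD2 the r among S animals lay between 0.85 and 0.96. Leaving out high 7 and low 6, the 2 animals farthest from the median, r still lay between 0.72 and 0.84 in the 8 animals left. The Spearman rho lay between 0.72 and 0.94 in the 10 S animals and between 0.45 and 0.90 in these 8. With low 10 left out as well, r lay between 0.24 and 0.77 and rho between 0.18 and 0.86 in 7 animals, highest for ISG15 and MX1, so the likeness of the other pairs rested in large part on 3 animals.

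Among the other animals 1 of these 6 pairs had a permutation p under 0.05. MX1 and RSAD2 had an r of 0.76 (permutation p = 0.0088) and a rho of 0.72 (permutation p = 0.0236) among 10 animals, and an r of 0.63 without high 4 and low 4. MX1 and IFI6 had an r of 0.55 (permutation p = 0.105) that became -0.27 without the same 2 animals, so the relation rested on them. ISG15 had an r of 0.51 with MX1, 0.47 with IFI6 and 0.32 with RSAD2, with permutation p-values of 0.135, 0.165 and 0.371. The range of ISG15 in this series was narrow, 37.98 to 64.41. That the 2 series differ in these correlations was not tested.

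MX2 did not follow its neighbour. Among S animals its r with ISG15, MX1, IFI6 and RSAD2 was -0.40, -0.38, -0.33 and -0.09, and among other animals it was 0.25, -0.16, -0.21 and -0.40. The lowest permutation p of these 8 relations was 0.247. Without high 7, low 6 and low 10 its r with RSAD2 was 0.77 in 7 S animals and its r with MX1 0.09. All values of MX2 were dim, which limits any correlation.

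**Figure D3:**
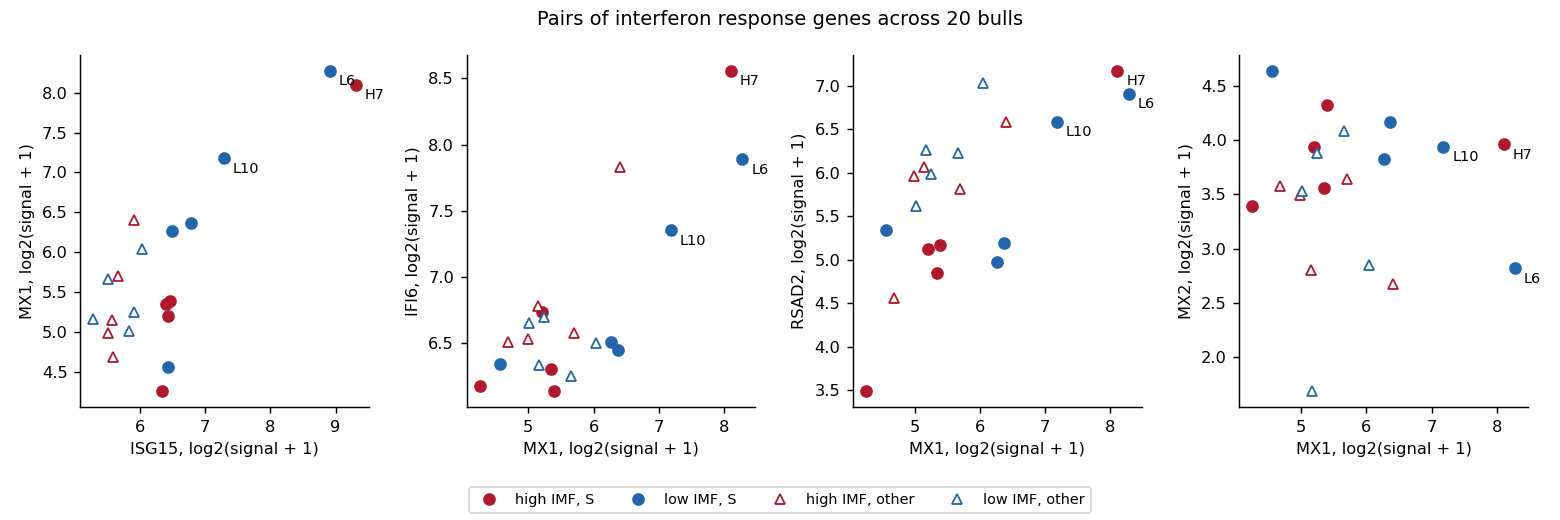
Log2(signal + 1) of 1 member against another in 20 bulls, with filled circles for S animals, open triangles for other animals, red for high and blue for low IMF. High 7 (H7), low 6 (L6) and low 10 (L10) lie at the upper right for ISG15 against MX1, MX1 against IFI6 and MX1 against RSAD2, and MX2 shows no such trend.

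The genes most like the members were other interferon-stimulated genes. The mean log2 value of ISG15, MX1, MX2, IFI6 and RSAD2 was taken as the interferon level of an animal, and tested probe sets were ranked by Pearson r with it across 20 animals, as a description. The level was 7.42 in high 7, 6.96 in low 6 and 6.47 in low 10, and high 4 was next at 5.88. Among probe sets with 1 gene symbol, and taking each gene once, the 8 genes with the highest r outside the members were XAF1 (0.96), PARP12 (0.91), EPSTI1 (0.88), ZNFX1 (0.88), IFI27 (0.82), UBA7 (0.81), IFITM1 (0.80) and IRF9 (0.78). An r of at least 0.6 was found in 0.798% of tested probe sets. All 8 genes were on the interferon pathway lists drawn up for this description, which held 59 of 7038 tested genes or 0.838%. Members and lists were chosen with earlier results of these data known, so this overlap is a description and not a test. UBA7 activates ISG15 for its attachment to other proteins, IRF9 is a DNA-binding factor of the type I interferon response, and IFITM1 is a membrane protein that hinders virus entry. XAF1 is a proapoptotic interferon target, ZNFX1 a helicase that senses viral RNA, and PARP12 an ADP-ribosyltransferase.

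High 7, low 6 and low 10 held the 3 highest values of each of these 8 genes, which the choice of the genes by their likeness to a level led by these animals largely fixed. IFI27, a small membrane protein of the same family as IFI6, had a signal of 673 in high 7, 428 in low 6 and 241 in low 10, against 208 in high 4, the next animal, and a median of 74.5. IFITM1 had 1757 in high 7, 1560 in low 6 and 1166 in low 10, with the fourth-highest value at 598. XAF1 had 238 in high 7, 198 in low 6 and 135 in low 10, with the fourth-highest at 84.3. IRF9 had 149 in high 7, 172 in low 6 and 145 in low 10, with the fourth-highest at 93.6.

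Once the means of the 4 sets of IMF group and title series were taken out, XAF1 had an r of 0.95 with the level and the 8 genes lay between 0.83 and 0.95. None of the 8 differed by IMF, with a limma adjusted p of 0.9997 for each and differences from -0.28 for IFITM1 to 0.13 for IFI27. IFITM1 was higher in S animals by 1.29 (SE 0.26, limma adjusted p = 0.000154), UBA7 by 1.06 (SE 0.21, adjusted p = 0.000163), IRF9 by 0.83 (SE 0.14, adjusted p = 3.89e-05) and ZNFX1 by 0.58 (SE 0.16, adjusted p = 0.00285). XAF1, PARP12, EPSTI1 and IFI27 did not pass, with adjusted p between 0.0538 and 0.378. These PARP12 values are of the dimmer of its 2 tested probe sets. The brighter one had an r of only 0.30 and was higher in S animals by 0.56 (limma adjusted p = 0.000175), so the probe sets of that gene disagreed.

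**Figure D4:**
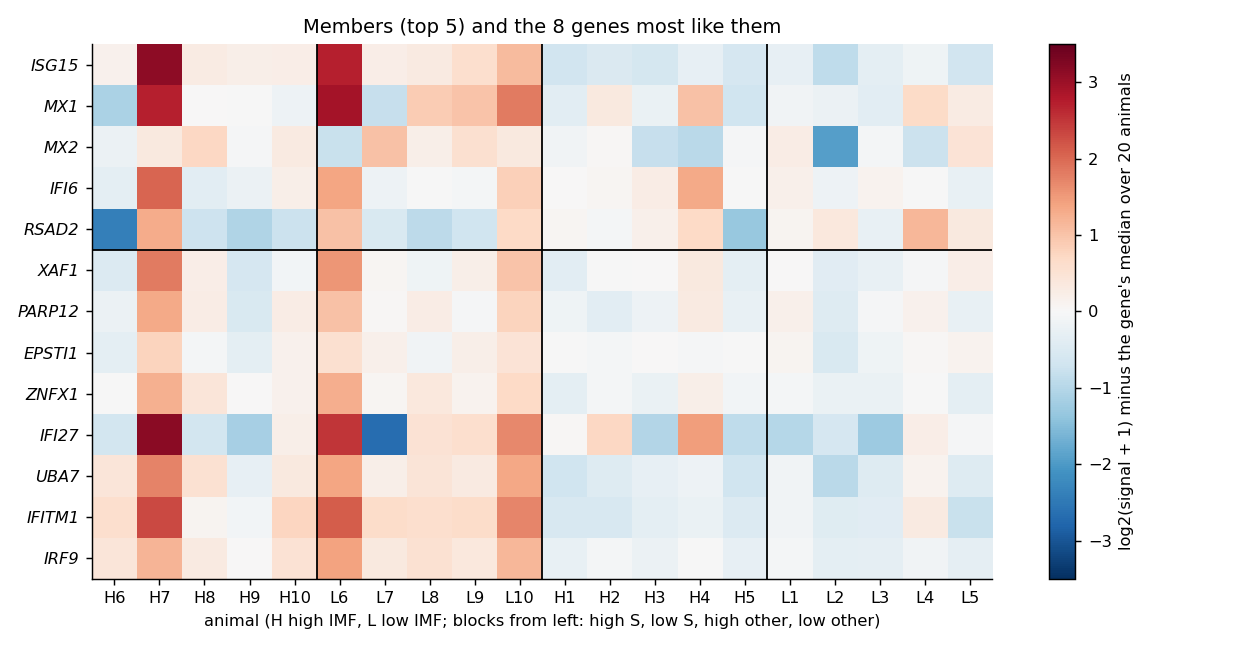
Log2(signal + 1) minus the gene's median over 20 animals (colour) for the 5 members (top rows) and the 8 genes most like them, in high S, low S, high other and low other animals from left to right. H7, L6 and L10 are the columns with positive values across the 8 genes, and MX2 does not share that pattern.

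Few interferon genes themselves could be followed. Of 17 interferon genes looked for, 4 had a probe set of 1 symbol and 1 passed the filter. IFNG, the type II interferon, had a signal from 1.61 to 20.3, with 20.3 in high 7, 12.3 in low 6 and 16.1 in low 10, so high 7 was the highest of 20, and an r of 0.47 with the level. IFNB1, a type I interferon, was listed at 0 in high 7, at 4.80 in low 6 and at 0.90 in low 10, with a highest value of 10.2. IFNAC, a type I interferon just under the filter, had 44.3, 39.2 and 35.2 in these animals against a median of 42.3, and an r of -0.16. IFNT2, of the trophoblast type, had an r of -0.11 with the level and its lowest value of 20 animals in low 6. IFNG and IFNB1 were so dim that a change may not be measurable.

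Genes of the receptor and its signalling chain differed among themselves. Of 7 tested genes of this list, 0 were called by IMF and 4 were called as higher and 2 as lower in S animals, or 57.1% and 28.6%. With 1 probe set per gene, 40.6% of all tested genes were called as higher and 29.6% as lower in S animals, the background for the counts of this and the following lists. STAT2 had a signal of 72.2 in high 7, 69.2 in low 6 and 77.2 in low 10 against a median of 55.2, with an r of 0.49. IFNAR1, a receptor chain, had 112.8 in high 7, 77.0 in low 6 and 113.7 in low 10 against a median of 97.2, so low 6 was among the lowest. JAK1, the kinase bound to the receptor, had 1969, 2086 and 1945 in these animals, all below its median of 2097. Among the 7 tested genes IRF9 alone reached an r of 0.6. IFNAR2, the other receptor chain, lay just under the filter with a mean signal of 42.7 and was not tested. It had 58.9 in high 7, the highest of all animals, 48.8 in low 6 and 50.3 in low 10. Its median was 42.6 and its r with the level was 0.5995, so the receptor chains differed in their likeness to the level.

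None of the other IRF factors reached an r of 0.6 with the level. IRF7, which carries the second wave of type I interferon production, had 142 in high 7, 92.5 in low 6 and 129 in low 10 against a median of 121, and an r of 0.06. IRF2, a repressor of interferon targets, had an r of -0.47, and IRF3, the factor that virus sensors activate, had an r of 0.44. IRF3 was higher in S animals by 1.33 (limma adjusted p = 2.74e-06). Of the 5 tested IRF genes, 0 were called by IMF, and 2 were called as higher in S animals, or 40% against 40.6% of all tested genes, and 0 as lower, against 29.6%.

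Sensors of viral nucleic acid stayed under an r of 0.6 with the level, from -0.47 to 0.42. High 7 was among the 3 highest in 37.5% of the 8 tested sensors, against 17.6% of all tested genes. For low 6 the share was 12.5% against 24.4%, and for low 10 it was 0% against 19.3%. DHX58, a helicase that tunes RNA sensing, had 54.2 in high 7, 51.3 in low 6 and 47.5 in low 10 against a median of 45.5. MAVS, the mitochondrial adaptor of RNA sensing, had 315, 313 and 311 in the same animals against a median of 294. TLR3, a receptor for double-stranded RNA, had 187, 199 and 141.2 against a median of 240, with low 10 the lowest of 20. Of 8 tested sensors, 0 were called by IMF, and 3 were called as higher and 2 as lower in S animals, or 37.5% and 25%, close to the background of 40.6% and 29.6%.

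The wider list of interferon-stimulated genes split. It held 57 genes beside the members, of which 37 had a probe set of 1 symbol and 21 passed the filter. That filter on the mean over all 20 animals takes in the animals where the genes are high. In the dim genes it left out, r with the level ran from -0.37 for GBP5 to 0.49 for OAS1X. By IMF 0 of 21 were called, with 5 higher and 16 lower in high IMF by value and a median difference of -0.11, against -0.02 over all 7038 tested genes, of which 3049 were higher and 3989 lower. Between the title series 10 were called as higher and 1 as lower in S animals, or 47.6% and 4.76% against 40.6% and 29.6% of all tested genes, with a median difference of 0.39 against 0.11 over all tested genes. An r of at least 0.6 with the level was reached by 7 of 21, or 33.3%, against 0.81% of all tested genes. PARP12 entered these counts by its brighter probe set, with an r of 0.30, and so is not among the 7. The r across all 20 animals takes in the difference between the title series. With the means of the 4 sets of IMF group and title series taken out, DTX3L rose from 0.59 to 0.87 and NMI from 0.37 to 0.64. Other genes of the list fell, as PARP12 did to -0.02, so which genes reached 0.6 depended in part on the title series. High 7 held the highest value in 10 of 21, or 47.6%, against 3.95% of all tested genes. Low 6 held it in 3 of 21, or 14.3%, against 10.03%, and low 10 in 1 of 21, or 4.76%, against 7.35%. Among the 3 highest were high 7 in 14 of 21, low 6 in 11 and low 10 in 12, or 66.7%, 52.4% and 57.1%, against 17.6%, 24.4% and 19.3% of all tested genes. Such ranks were not particular to this list. For the 11 antigen processing genes described below the shares were 63.6%, 54.5% and 54.5%. For 6 macrophage markers they were 66.7%, 33.3% and 66.7%, but for 6 lymphocyte markers 0%, 0% and 33.3%. The lists were chosen with earlier results of these data known.

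USP18 and IFIT5, both classical targets, had a low r with the level across all 20 animals, 0.28 for USP18. USP18, which removes ISG15 from proteins and damps receptor signalling, had 102 in high 7, the highest of 20, but 50.8 in low 6 and 71.1 in low 10 against a median of 69.3. IFIT5, an RNA-binding target, had 216 in high 7, 210 in low 6 and 219 in low 10 against a median of 223, and an r of 0.01. IFIT5 was lower in S animals by value and test, with a difference of -0.94 (limma adjusted p = 1.16e-06). With the means of the 4 sets of IMF group and title series taken out its r was 0.72. IFIT5 thus varied with the level within these sets, though not across all 20 animals. Its difference between the series thus ran against that of ISG15.

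Some genes of antigen processing, targets of type II interferon, were also high in these animals. The list held 11 tested genes, of which 2 reached an r of 0.6. PSMB8, a subunit of the immunoproteasome, had 177 in high 7, 162 in low 6 and 147 in low 10 against a median of 119. PSMB9, another such subunit, had 277, 266 and 353 in these animals, the 3 highest of 20 with low 10 first, and an r of 0.67. PSMB10 had 306, 250 and 357 against a median of 270, with low 10 again the highest. These are S animals, and in S animals as a whole PSMB8 was higher by 0.60, PSMB9 by 0.26 and PSMB10 by 0.20. By IMF 0 of the 11 were called, and 6 were called as higher in S animals, or 54.5% against 40.6% of all tested genes, and 0 as lower, against 29.6%.

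Inhibitors of the pathway showed no shared pattern. Of 6 tested genes, 0 were called by IMF, 1 was called as higher and 2 as lower in S animals, or 16.7% and 33.3% against 40.6% and 29.6% of all tested genes, and none had an r of 0.6. PIAS1, an inhibitor of JAK-STAT signalling, differed by -0.39 (SE 0.11) by IMF, with an unadjusted p of 0.00215 and a limma adjusted p of 0.9997. PTPN6, a phosphatase that dampens JAK signalling, had an r of -0.34, and PTPN2, another such phosphatase, had an r of -0.18.

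**Figure D5:**
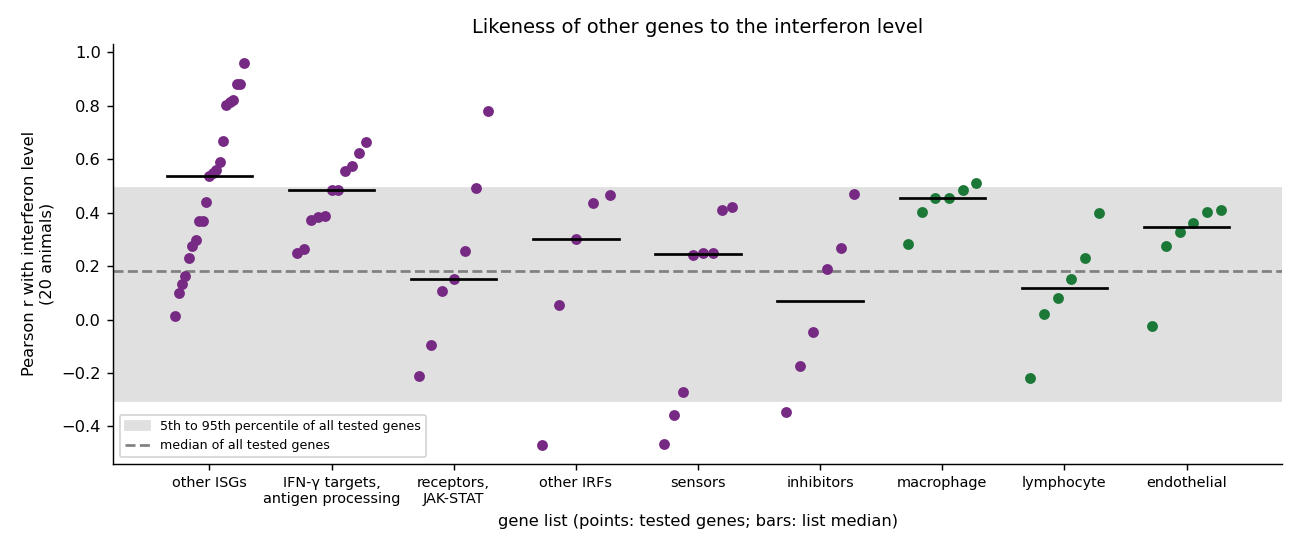
Pearson r across 20 animals between the interferon level and each tested gene of 9 lists (points, list medians as bars), with the 5th to 95th percentile of all 7038 tested genes in grey, from -0.31 to 0.49. The other interferon-stimulated genes reach from 0.01 to 0.96, and no gene of the IRF, sensor, inhibitor, lymphocyte or endothelial lists lies above the grey band.

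In whole muscle, fewer cells of a type and less RNA per cell cannot be told apart, and markers of other cell types were followed beside the members. The 12 macrophage markers with a probe set had a summed signal of 866 to 1333 in S animals and 415 to 1106 in other animals. In this sum low 10 was at rank 1, high 7 at rank 2 and low 6 at rank 5 of 20. CSF1R, the receptor of macrophage growth factor, had 148 in high 7, 148 in low 6 and 132 in low 10 against a median of 101, and CD14, a monocyte receptor, had 129, 170 and 143 against a median of 99.1. Of the 6 tested markers 5 were called as higher in S animals, or 83.3% against 40.6% of all tested genes, with a median difference of 1.01 over the 6 against 0.11. The 6 had r between 0.28 and 0.51 with the level, and their part in the members' differences was not tested.

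Lymphocyte markers had a median r of 0.12 with the level, and CD3D, a chain of the T cell receptor complex, had 71.6 in high 7, 99.6 in low 6 and 106 in low 10 against a median of 96.9. Their summed signal was 672 to 1008 in S animals and 626 to 1158 in other animals, with high 7 at rank 9, low 6 at rank 10 and low 10 at rank 3 of 20. Neutrophil markers summed to 150 to 199 in S animals and 121 to 166 in other animals, with high 7 at rank 3, low 6 at rank 2 and low 10 at rank 11, and 1 of them was tested, S100A9 with an r of 0.33. Endothelial markers summed to 2047 to 3339 in S animals and 1664 to 2466 in other animals, with high 7 at rank 9, low 6 at rank 2 and low 10 at rank 4. VWF and SLC4A1, markers of the endothelial and red blood cell lists, were listed at 0 in at least 1 array. Red blood cell markers summed to 227 to 755 in S animals and 168 to 496 in other animals, and HBB, a haemoglobin chain, had 14.2 in high 7, 29.99 in low 6 and 510 in low 10 against a median of 22.8. High 7, low 6 and low 10 were not among the 4 arrays with a high albumin signal. Their GAPDH 3′ to 5′ signal ratios, a measure of RNA integrity, were 0.79, 0.72 and 0.74, in a range of 0.72 to 0.88 over all 20 arrays, with low 6 the lowest.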

How the data were processed

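Total RNA of M. longissimus dorsi from 20 bulls was measured on 1 array each. TRI Reagent was used to isolate RNA, which was cleaned of DNA and turned into biotin-labelled cRNA, per the labels' protocols. Per the submitters' processing notes, GCOS 1.1.1 and Affymetrix Expression Console 1.1 were used; the sources used here give no method for summarising probes. The deposited table holds 1 linear intensity for each probe set and array, kept as normalized by the authors, and no detection call was used. From 24128 probe sets, 112 array controls and then the 40% with the lowest mean were left out, which left 14409. log2(value + 1) was tested with limma 3.58.1 in R 4.3.3 (lmFit, eBayes, two-sided, Benjamini-Hochberg at 0.05), and the code was tested on simulated data. The series text names a paired t-test, but the labels pair no animals, so fits were unpaired. Title series was a possible batch, balanced over IMF. Correlations were computed in Python with 100000 permutations. The number of arrays limits the precision, and p-values measure the spread between these 20 samples, 1 per animal.

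Gene symbols came from the platform annotation: 13318 probe sets had 1 symbol, 86 several and 10724 none. RefSeq assembly ARS-UCD2.0 was used for names and neighbours. Sequences were not used here. Members and lists were chosen with earlier results of these data known. Named by rule were all members, the first 3 tested genes in the order of each list, by the probe set with the highest mean, and the 8 genes most like the interferon level. JAK1 and the untested IFNG, IFNB1 and IFNAC were named outside this rule. GBP5 and OAS1X, the ends of a range of r, and IFNAR2, DTX3L, NMI, VWF and SLC4A1 were named after their values were seen. Alternatives were other scalings, pseudocounts and filters, leaving out arrays, title series as a covariate and an unpaired t-test.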

Additional observations from a re-analysis of the deposited data

Results flagged for a closer look

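The gap between the highest or lowest animal and its nearest neighbour, as a share of the group's whole range, was wide for 19 of the gene and group combinations looked at. Chance gives about 1 in 20 groups such a gap, and on these arrays it was found for 4.14% of probe sets in high IMF and 3.49% in low IMF animals. The flags among named genes were 11 of 49 in high IMF and 5 of 49 in low IMF, and the named genes include those chosen for being like the members. In the sets of 5 animals, 2 of 5 members were flagged in high IMF S animals, against 5.36% of probe sets. In high IMF other animals it was 1 of 5, against 5.25%, and in both low IMF sets 0 of 5, against 4.69% in S and 6.12% in other animals. The members were chosen with earlier results of these data known, so these shares are a description and not a test.

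High 7 stood out in 10 of these. The ratio for ISG15 was 0.7491 among the 10 high IMF animals and 0.9573 among the 5 high IMF S animals, and for IFI6 it was 0.7537 among the 5 high IMF S animals. Among the 10 high IMF animals it was 0.6175 for XAF1, 0.5493 for PARP12, 0.5446 for EPSTI1, 0.5259 for ZNFX1, 0.4913 for UBA7, 0.5421 for IFITM1 and 0.4663 for IRF9. High 4 stood out for IFI6 among the 5 high IMF other animals, with a ratio of 0.7933.

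In low 6 the ISG15 ratio of 0.4488 stayed under the limit, since low 10 lay between it and the rest. Low 10 stood out for PSMB9 at 0.4842 and for HBB at 0.6669. High 6, an animal with a dim array, stood out as the lowest for IFNT2 at 0.5101 and CD3E at 0.5991. Low 2 stood out for PSMB10 at 0.5718 and high 5 for HBB at 0.5751. Low 3 stood out for ALB at 0.9000 and APOA2 at 0.8551, both liver transcripts.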

How the results depend on the processing

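Between high and low IMF 0 probe sets were called under 31 alternatives, 0 for the interaction under 28 and 0 within the S series under 29. Within the other series the count without single animals lay between 0 and 1. The count between title series lay between 8871 and 12549. ISG15 in S minus other animals stayed between 0.80 and 1.77, with adjusted p of at most 0.0022. MX1 passed between title series without the 4 albumin arrays (1.14, adjusted p = 0.046), and RSAD2 passed without high 7 (-0.76, adjusted p = 0.038) and without the 3 animals with the highest interferon level (-1.10), all S animals chosen by values that include RSAD2, so that this p conditions on the outcome. Without those 3 animals MX1 and IFI6 turned to -0.0414 and -0.2999. Leaving out the 3 highest animals, or high 6 and high 9 with dim arrays, was chosen after the data were seen.

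IMF differences changed sign under some alternatives. These included the largest, -0.87 for MX1 within S animals and -0.83 for the MX1 interaction. With 4 albumin arrays left out, the interaction was 0.7105 for ISG15, 0.3389 for MX1, 0.1242 for IFI6 and 0.7862 for RSAD2, and within S animals the difference was 0.6753, 0.1952, 0.5216 and 0.2072 for the same genes. Pooled ISG15 was 0.2428 with title series as a covariate and these arrays left out. Without the 2 dim arrays the interaction was 0.2858 for ISG15 and 0.4491 for RSAD2, and within S animals the difference was 0.2205 for ISG15, 0.2346 for IFI6 and 0.0207 for RSAD2. All had adjusted p far over 0.05, and the cause was not tested.

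Without single animals the pooled difference ran from -0.4618 to 0.1453 for ISG15 and from -0.0787 to 0.2474 for IFI6, and IFI6 in S minus other animals from -0.0163 to 0.3088. The interaction ran from -0.7089 to 0.3064 for ISG15 and from -0.7151 to 0.2050 for RSAD2. Within S animals ISG15 ran from -0.7741 to 0.2411 and IFI6 from -0.5701 to 0.1190. Within other animals ISG15 ran from -0.1723 to 0.0143 and MX1 from -0.2959 to 0.1347.

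No paired analysis was possible because the labels pair no animals. MX2 passed neither filter, so it has values with no filter only. The search for promoter motifs was not run.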
